A study of Mus musculus with 40 samples.

Results

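Ribosome-bound RNA of the nucleus accumbens was compared between mice that had taken cocaine without escalating their intake and mice that had taken saline, about 1 month after intravenous self-administration ended. The comparison holds 15 of the 40 libraries of a long-access study: 10 nonescalating libraries (numbered 1596 to 1605 in their labels) and 5 saline libraries (1590 to 1594). Library 1595 bears the same group label as the 10, but it held 5168 counts over 2448 genes and was left out. All mice carried the Drd1-TRAP CP73 transgene, on an FVB/N-Swiss Webster background crossed to C57BL/6 for at least 9 generations, and every library was an immunopurified sample. In this transgenic line an EGFP-tagged ribosomal protein is driven by the promoter of the D1 dopamine receptor gene, so the anti-EGFP pull-down enriches polysomes of the cells in which the transgene is active. No input or unbound RNA was analysed here. Age, sex, dose, session length and the number of animals behind a library are not stated in the labels, so n counts libraries, and p-values measure only the spread between these samples. The 4 escalating libraries of the same time point (1606 to 1609) entered the model only to share its estimate of the spread.

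Medium spiny neurons of the direct pathway carry the D1 receptor, use GABA, and release dynorphin and substance P. Dopamine raised by cocaine acts on the D1 receptor through cyclic AMP and protein kinase A, and the same neurons receive glutamate from cortex, amygdala, hippocampus and thalamus. Work in rats has tied long abstinence from extended cocaine access to altered AMPA-type glutamate receptors at these inputs, which makes receptor, scaffold, peptide and adhesion genes natural places to look for a difference that outlasts drug taking. Counts of bound RNA cannot show receptor protein or its place in the membrane.

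Gene counts ran from 10.5 to 33.9 M (mega) per library in saline and from 4.97 to 15.2 M in nonescalating libraries. Replicate numbers in the labels start again at 1 within the nonescalating group, and its libraries form a first run, 1596 to 1600 (10.5 to 15.2 M counts), and a second run, 1601 to 1605 (4.97 to 8.92 M). These depths did not overlap (exact two-sided permutation test, p = 0.00794, adjusted p = 0.0476 over 6 library measures). Ambiguous reads differed between the runs as well (2.86% to 4.93% against 2.31% to 3.21%, exact permutation p = 0.0159, adjusted p = 0.0477). Between nonescalating and saline libraries none of the 6 measures passed, with depth closest (exact permutation p = 0.0719, adjusted p = 0.431). Nonescalating libraries 1604 and 1596 stood apart from the rest: their median correlation with the other 1-month libraries was 0.842 and 0.844, against 0.865 to 0.934 for the other 13 libraries of the comparison. The defining markers of the labelled cells were present in every library. Summed over 10 listed genes, D1 medium spiny neuron markers ran from 2128 to 2514 CPM (counts per M counts on TMM-scaled totals) in saline and from 1949 to 2734 CPM in nonescalating libraries.

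**Figure D1:**
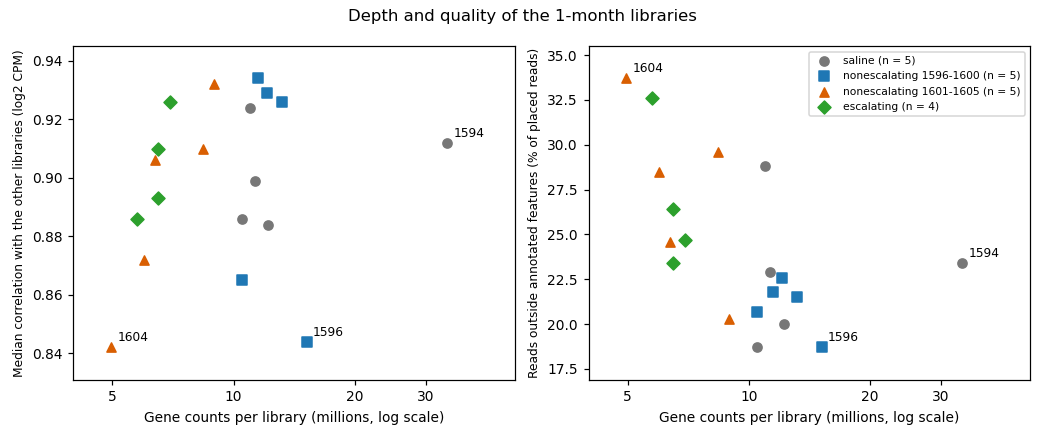
Depth of each 1-month library (gene counts in M, log axis) against its median correlation with the other 1-month libraries (left) and against the percentage of placed reads outside annotated features (right). The second run of nonescalating libraries lies at 4.97 to 8.92 M counts, to the left of the first run, and libraries 1604 and 1596 have the lowest correlations, 0.842 and 0.844.

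No gene differed between nonescalating and saline libraries at an adjusted p under 0.05 with edgeR's quasi-likelihood test: 0 of 14181 genes tested were called, which is 0%, and the smallest adjusted p was 0.986. At an unadjusted p under 0.05 there were 642 genes, 362 higher (2.55% of those tested) and 280 lower (1.97%) in nonescalating libraries, where a flat distribution of p-values would hold 709. Limma voom called none (0) and had 780 genes at such a p. By DESeq2 8 genes passed, all higher, and 826 had such a p. Of those 8, the sparse genes Gm12504, Lpo, Il2rg and Trpv4 were near or at 0 in saline libraries, and the other 4 were Rmnd5b, Limch1, Sidt2 and Traf2.

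The median log2 fold change over all genes tested was 0.02 and 52.5% of them were positive, and the absence of calls has a different reach at different levels. Among the 2084 genes with a mean level of 100 CPM or more, the 95% interval of the fold change lay inside a 2-fold difference for 98.8% and inside a 1.5-fold difference for 83.5%. Between 10 and 100 CPM the 2-fold share was 70.6% of 6301 genes, and between 1 and 10 CPM it was 2.46% of 4751. None of the 1045 genes under 1 CPM had so narrow an interval. For abundant transcripts in the pull-down, from whichever cells, a difference of more than 2-fold was therefore outside the interval for nearly all. At low levels the interval of most genes reached past 2-fold.

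**Figure D2:**
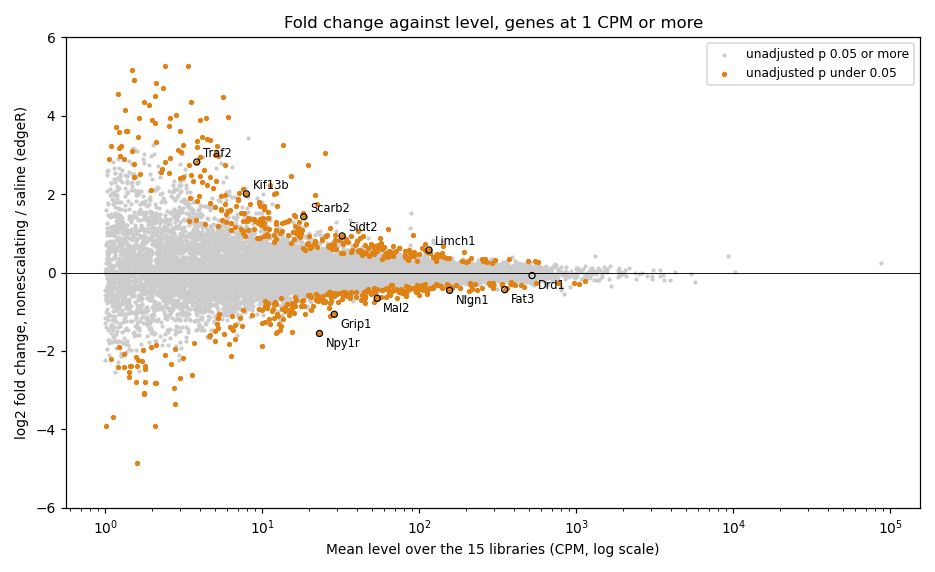
Log2 fold change (nonescalating over saline, edgeR) against the mean level over the 15 libraries (CPM, log axis) for 13136 genes at 1 CPM or more, of which 7 fall outside the vertical range. Genes at an unadjusted p under 0.05 (orange) are those with the larger differences for their level, and the cloud narrows as the level rises; no gene passed the adjusted threshold.

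Genes that define the neuron and its transmitters stood close together in both groups. Drd1, whose promoter drives the transgene (chromosome 13, 54051183 to 54055705 of GRCm38), had 535, 566, 474, 516 and 623 CPM in the saline libraries 1590 to 1594. Its 10 nonescalating levels were 413 at the lowest, 521 at the median and 648 at the highest, reaching past the saline range on both sides, and the log2 fold change was -0.08 ± 0.12 (SE). Pdyn, the gene of the dynorphin precursor, had 377, 429, 538, 442 and 439 CPM in saline and 324 at the lowest, 468 at the median and 550.4 at the highest in nonescalating libraries, a difference of 0.05 ± 0.12 with a 95% interval of -0.20 to 0.30. Tac1, which encodes the precursor of substance P, stood at 267 ± 67.8 CPM in saline (SD, n = 5) and 237 ± 54.3 CPM in nonescalating libraries (SD, n = 10) (-0.17 ± 0.18). The enkephalin precursor gene Penk, a product mainly of the D2 neurons, had 592 ± 166 CPM in saline (SD, n = 5) and 485 ± 120.2 CPM in nonescalating libraries (SD, n = 10) (-0.29 ± 0.17), and Drd2, the D2 receptor gene that marks them, 49.2 ± 32.1 CPM in saline (SD, n = 5) and 48.7 ± 17.5 CPM in nonescalating libraries (SD, n = 10) (-0.01 ± 0.31). In libraries 1601 to 1605 Penk was -0.58 against saline and in 1596 to 1600 it was -0.05. Over both it was -0.11 without saline library 1590, and Tac1 was -0.01 without library 1591. The sum over 9 D2 markers overlapped between groups, at 707 to 1394 CPM in saline and 625.3 to 1116 CPM in nonescalating libraries. In 12 markers shared by all medium spiny neurons the median log2 fold change was 0.10, in the 10 D1 markers 0.06 and in the D2 markers 0.11, with no member at an unadjusted p under 0.05.

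Immediate early genes, the first transcriptional response to neuronal activity, showed no difference that passed. Of 34 members tested, 19 were positive, the median was 0.07, and 0 were higher and 1 lower at an unadjusted p under 0.05. Of all genes 52.5% were positive, 2.55% higher and 1.97% lower at such a p. Fosb, whose truncated product accumulates with repeated cocaine, had 86.2, 25.6, 42.9, 32.7 and 68 CPM in saline and 17.1 at the lowest, 39.6 at the median and 74.9 at the highest in nonescalating libraries (-0.15 ± 0.30). Arc, an activity-regulated cytoskeletal gene, had a fold change of 0.03 ± 0.36, the transcription factor gene Egr1 -0.14 ± 0.18 and the nuclear receptor gene Nr4a1 0.14 ± 0.33. Fos stood at 4.01 ± 1.79 CPM in saline (SD, n = 5) and 2.60 ± 3.05 CPM in nonescalating libraries (SD, n = 10), too few counts for a narrow interval (-2.34 to 1.12). The growth factor gene Bdnf was sparser still, between 0 and 5.32 CPM in saline and between 0 and 2.94 CPM in nonescalating libraries, with a difference of -0.98 ± 1.32. The member at an unadjusted p under 0.05 was Btg2, an antiproliferative early gene, at 10 ± 8.80 CPM in saline (SD, n = 5) and 4.64 ± 2.39 CPM in nonescalating libraries (SD, n = 10) (-1.10 ± 0.52), and saline library 1592 held its highest level, 23.8 CPM. Without that library the difference was -0.50.

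Of the genes at 1 CPM or more, 5 were higher in every nonescalating library than in any saline library (0.0353% of the genes tested) and 6 were lower in every one (0.0423%). There are 3003 ways to choose 5 of the 15 libraries, and 1 of them separates the groups in a given direction. Among 14181 genes a few would do so by chance, so counts of this size need no difference between the groups. Sidt2, which encodes a lysosomal membrane protein, had the widest gap (chromosome 9, 45937857 to 45955258). Its saline levels were 21, 16.4, 15.5, 23.9 and 23.8 CPM and its nonescalating levels 28.9 at the lowest, 35.1 at the median and 66.8 at the highest, a log2 fold change of 0.93 ± 0.23 (edgeR, unadjusted p = 0.00038, adjusted p = 0.986). Rmnd5b, a gene for a subunit of the CTLH ubiquitin ligase, had 25.9, 28, 19.5, 27 and 33.1 CPM in saline and 35.1 at the lowest, 46 at the median and 65.6 at the highest in nonescalating libraries (0.81 ± 0.20; chromosome 11, 51623671 to 51635896). Limch1, whose product binds actin and non-muscle myosin, had 98.6, 85.6, 70.3, 96.8 and 84.8 CPM in saline and 101 at the lowest, 133 at the median and 155 at the highest in nonescalating libraries (0.57 ± 0.14). These groups stood apart by narrow margins. With each of the 15 libraries left out in turn the differences were 0.81 to 1.0 for Sidt2, 0.71 to 0.89 for Rmnd5b and 0.50 to 0.62 for Limch1. These genes were picked for not overlapping in the same libraries, so such small movement was built in and is no separate support. The remaining higher genes without overlap were low in saline. Kif13b, a kinesin motor gene, had 3.21, 3.54, 1.34, 3.45 and 1.70 CPM in saline and 3.93 at the lowest, 7.42 at the median and 31.4 at the highest in nonescalating libraries (2.0 ± 0.58). Traf2, an adaptor of tumour necrosis factor receptors, had 0.740 ± 0.481 CPM in saline (SD, n = 5) and 5.38 ± 4.26 CPM in nonescalating libraries (SD, n = 10) (2.82 ± 0.82).

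Other genes among the 15 higher ones with the smallest p came close to separating the groups. Atp6v0a2, which encodes a membrane subunit of the vacuolar proton pump (chromosome 5, 124628576 to 124724455), had 34.9, 32.6, 45.1, 41.1 and 41.2 CPM in saline. In nonescalating libraries it had 36.9 at the lowest, 64.6 at the median and 111 at the highest, and the single library inside the saline range was 1597, with 36.9 CPM (0.76 ± 0.19). Scarb2, a lysosomal membrane receptor (chromosome 5, 92441314 to 92506833), had 5.34, 2.70, 9.77, 15 and 10.4 CPM in saline and 11 at the lowest, 19 at the median and 54.3 at the highest in nonescalating libraries (1.42 ± 0.41). The list of proton pump and lysosome genes did not share this direction: 13 of 34 tested members were positive and the median was -0.08. In it 2 members, Scarb2 among them, were higher at an unadjusted p under 0.05. Of all genes 52.5% were positive, and 2.55% were higher at such a p. Znfx1, an RNA helicase gene, stood at 68.1 ± 13.3 CPM in saline (SD, n = 5) and 96.7 ± 11.4 CPM in nonescalating libraries (SD, n = 10) (0.50 ± 0.15), and Ssr2, a gene of the translocon at the endoplasmic reticulum, at 15.7 ± 4.0 CPM in saline (SD, n = 5) and 28.2 ± 6.71 CPM in nonescalating libraries (SD, n = 10) (0.84 ± 0.24).

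Among lower genes, Mal2, a proteolipid gene of vesicle transport (chromosome 15, 54571192 to 54602847), had the smallest p. It had 96.8, 80, 67.7, 60.3 and 53.4 CPM in saline and 38 at the lowest, 42.9 at the median and 58.2 at the highest in nonescalating libraries (-0.66 ± 0.17, edgeR adjusted p = 0.986), so the ranges overlapped at their edge. Sema3e, a secreted guidance cue that signals through plexin D1 (chromosome 5, 14025276 to 14256689), had 33.3, 81.1, 48, 20.5 and 29.1 CPM in saline and 7.08 at the lowest, 19.7 at the median and 26.2 at the highest in nonescalating libraries (-1.12 ± 0.29). Saline library 1591 held the highest level, and without it the difference was -0.75. The neuropeptide Y receptor gene Npy1r (chromosome 8, 66697192 to 66706792) had 120.0, 36.6, 13.5, 16.8 and 20.5 CPM in saline and 6.16 at the lowest, 11.9 at the median and 26.1 at the highest in nonescalating libraries. Its difference of -1.56 ± 0.41 rested on saline library 1590, since it became -0.63 without that library (unadjusted p = 0.104 in edgeR). Fat3, an atypical cadherin gene (chromosome 9, 15910189 to 16501285), was lower in every nonescalating library, with 592, 373, 421, 373 and 365 CPM in saline and 249.8 at the lowest, 314 at the median and 363 at the highest in nonescalating libraries (-0.44 ± 0.12, and -0.29 without library 1590). Plcxd3, a gene with a phospholipase C domain, did not overlap either, at 37.2 ± 4.91 CPM in saline (SD, n = 5) and 22.4 ± 5.11 CPM in nonescalating libraries (SD, n = 10) (-0.74 ± 0.22). The other 4 without overlap were Pacsin2, a membrane-bending endocytic protein gene (-0.49 ± 0.16), Poglut1, a glucosyltransferase gene that acts on Notch (-0.67 ± 0.24), Phtf1 (-0.57 ± 0.23) and the kinetochore gene Spc24 (-1.56 ± 0.68).

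**Figure D3:**
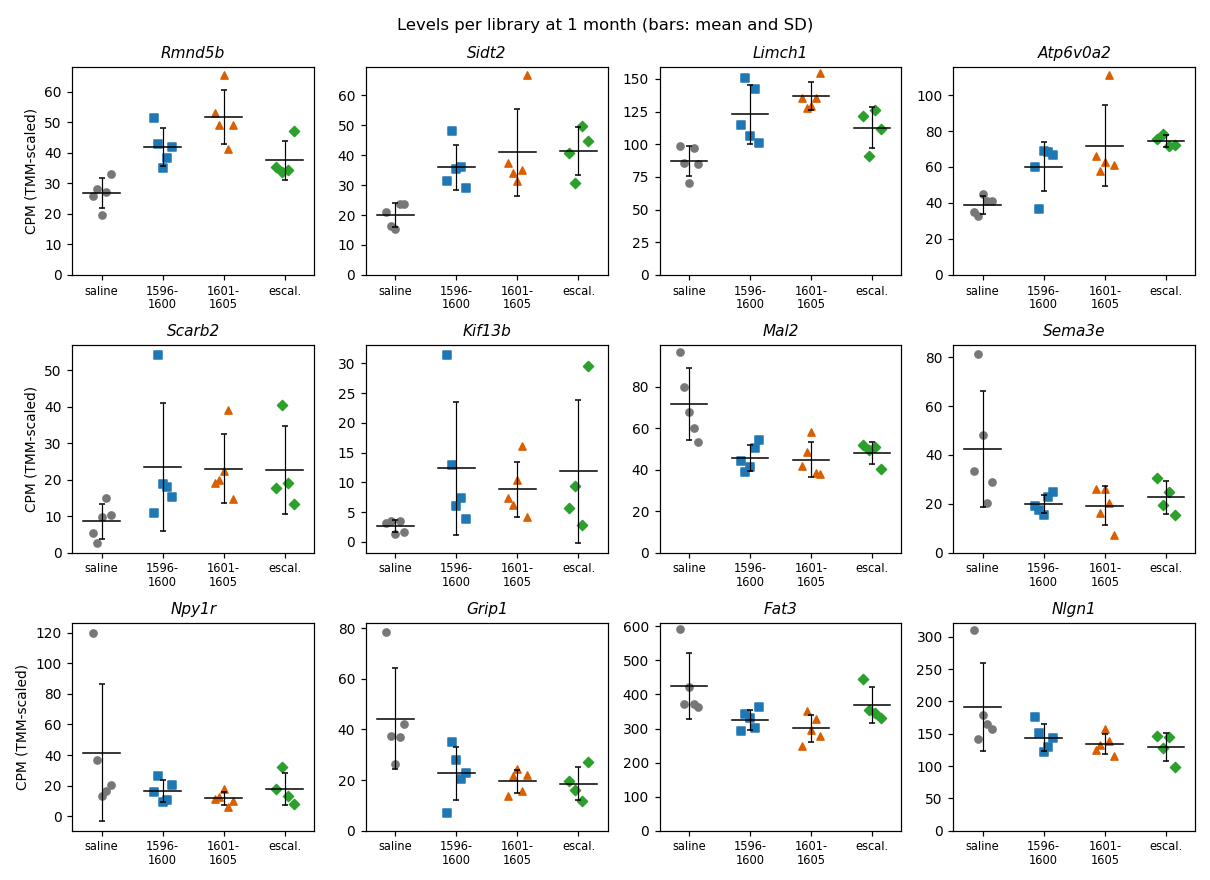
Level of 12 genes in each 1-month library (CPM on TMM-scaled totals), for saline (n = 5), nonescalating libraries 1596 to 1600 and 1601 to 1605 (n = 5 each) and escalating libraries (n = 4), with the mean and SD as bars. Sidt2, Rmnd5b, Limch1 and Kif13b separate saline from both nonescalating runs, whereas in Npy1r, Grip1 and Nlgn1 a single saline library, 1590, lies far above the others.

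Saline library 1590 stood at the edge of its group for many of these genes. It was the highest of the 5 saline libraries for 118 of the 280 genes that were lower at an unadjusted p under 0.05, or 42.1%, against 24.1% of all genes tested. It was the lowest of the 5 for 169 of the 362 higher genes, or 46.7%, against 30.6% of all. Its part in the differences was seen by leaving it out. Without it 123 of the 280 lower and 180 of the 362 higher genes kept an unadjusted p under 0.05 in the same direction, and without library 1591 these counts were 147 and 180. Without library 1592, 186 and 210 did, without library 1593, 251 and 263, and without library 1594, 231 and 225. Library 1591 was the highest for 33.2% of the lower genes, against 24.6% of all genes tested. It was the lowest for 31.2% of the higher genes, against 27.2% of all. These genes were chosen with all 5 saline libraries in the fit, so leaving out any of them can lower the counts.

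Genes of AMPA receptors and their partners mostly had fold changes slightly under 0, and none passed the test. Of 31 members tested, 4 were positive, the median log2 fold change was -0.12 against 0.02 for all genes, and 0 were higher and 3 lower at an unadjusted p under 0.05, beside 2.55% and 1.97% of all genes. Gria1, the gene of the GluA1 subunit, had 442, 519.6, 480.0, 503 and 537 CPM in saline and 336 at the lowest, 442 at the median and 504 at the highest in nonescalating libraries, a difference of -0.19 ± 0.10 with a 95% interval of -0.40 to 0.01. Gria2, whose product keeps the channel impermeable to calcium, had 879, 1083, 828, 723 and 899 CPM in saline and 567 at the lowest, 795 at the median and 1361 at the highest in nonescalating libraries (-0.10 ± 0.15, interval -0.41 to 0.21). Library 1596 was the highest for Gria2 and the lowest for Gria1. Gria3 stood at 429.8 ± 121 CPM in saline and 358 ± 75.1 CPM in nonescalating libraries (-0.26 ± 0.15) and Gria4 at 44.8 ± 12.2 CPM in saline and 41.1 ± 10.1 CPM in nonescalating libraries (-0.12 ± 0.23). The 95% intervals of these 4 subunit genes lay inside a 2-fold difference in either direction.

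Grip1, a scaffold that binds the tail of GluA2, had the smallest p of this list. It had 78.3, 37.5, 26.4, 37 and 41.9 CPM in saline and 7.03 at the lowest, 21.9 at the median and 35 at the highest in nonescalating libraries, and 2 nonescalating libraries were above the lowest saline library (-1.07 ± 0.30). Its gene (chromosome 10, 119453830 to 120087261) overlaps Helb and antisense transcripts on the other strand, whose reads may not be separable. Without library 1590 the difference was -0.76. Frrs1l, which encodes a protein that helps AMPA receptors assemble, stood at 197 ± 32.8 CPM in saline (SD, n = 5) and 158 ± 17.3 CPM in nonescalating libraries (SD, n = 10) (-0.32 ± 0.12), and the phosphoinositide phosphatase gene Sacm1l at 32.9 ± 5.63 CPM in saline and 23.4 ± 4.94 CPM in nonescalating libraries (-0.49 ± 0.22). Nptxr, a pentraxin receptor gene, had a larger and less certain difference, at 0.469 CPM in saline and 2.07 CPM in nonescalating libraries (2.12 ± 1.14, edgeR unadjusted p = 0.0735). Among the transmembrane auxiliary subunits Cacng2 was -0.46 ± 0.26, Cacng3 -0.27 ± 0.17 and Cacng4 0.52 ± 0.38. Of 23 NMDA, kainate and metabotropic receptor genes 6 were positive (median -0.11), beside 52.5% of all genes. Neto2, an auxiliary subunit of kainate receptors, was the member at an unadjusted p under 0.05, at 142 ± 44.2 CPM in saline (SD, n = 5) and 96.8 ± 21.3 CPM in nonescalating libraries (SD, n = 10) (-0.55 ± 0.18, and -0.36 without library 1590). Postsynaptic scaffold genes had a median of -0.03 over 29 members, with Homer2 at -0.98 ± 0.42 (-0.55 without saline library 1591, edgeR unadjusted p = 0.227) and Baiap2 at 0.26 ± 0.12.

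Most synaptic adhesion and perineuronal matrix genes had fold changes under 0, and again none passed the test. Of 46 members 14 were positive (median -0.10), with 1 higher and 5 lower at an unadjusted p under 0.05. Of all genes 52.5% were positive, 2.55% higher and 1.97% lower. Nlgn1, the gene of a postsynaptic adhesion protein, had 310.1, 142, 179, 165 and 157 CPM in saline and 116 at the lowest, 136 at the median and 175 at the highest in nonescalating libraries (-0.46 ± 0.16). Library 1590 held the highest saline level, and without it the difference was -0.21. Further lower members were the adhesion genes Ncam1 (-0.31 ± 0.14), Ncam2 (-0.39 ± 0.15) and Slitrk3 (-0.39 ± 0.17), and the higher one was Bcan, a matrix proteoglycan gene at a low level (4.93 ± 3.78 CPM in saline and 12.2 ± 14 CPM in nonescalating libraries; 1.31 ± 0.64). Ncam1 was -0.11 without library 1590 and Bcan 0.71 without library 1596. With each library left out in turn the median of this list ran from -0.14 to -0.04, the latter without library 1590. That of the AMPA list ran from -0.23 without library 1604 to -0.11 without library 1590.

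**Figure D4:**
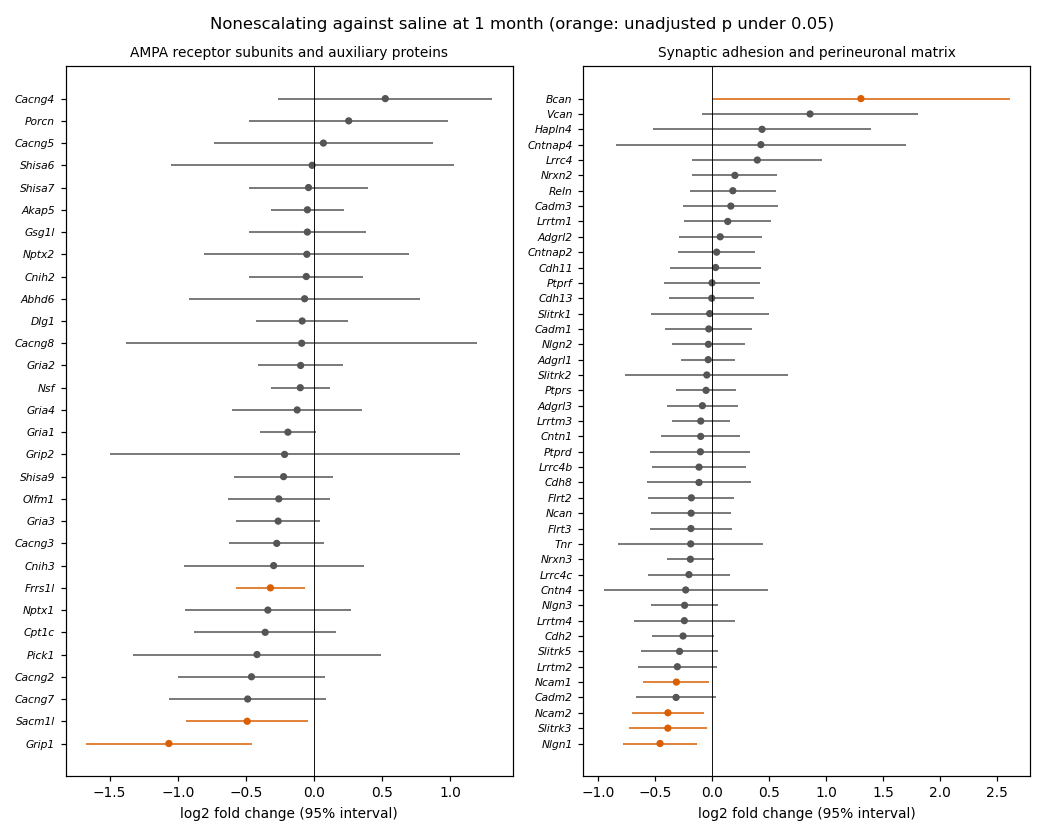
Log2 fold change of each tested member with its 95% interval (edgeR, nonescalating over saline) for AMPA receptor genes and partners (left, without Nptxr at 0.469 CPM in saline) and for adhesion and matrix genes (right, without members whose group means sum to under 2 CPM and 1 other member). Most points lie left of 0 and most intervals cross it; orange marks an unadjusted p under 0.05.

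Among inhibitory genes, 9 of 24 GABA receptor, synthesis and transport genes were positive (median -0.02). In that list 0 members were higher and 2 lower at an unadjusted p under 0.05. Of all genes 52.5% were positive, 2.55% higher and 1.97% lower at such a p. Potassium and related channel genes were balanced, with 27 of 61 positive (median -0.06), and 2 were higher and 1 lower at an unadjusted p under 0.05. The higher ones were the pacemaker channel gene Hcn2 (0.89 ± 0.42) and the potassium channel gene Kcna6 (0.89 ± 0.36). Hcn2 was 0.71 without saline library 1591 (edgeR unadjusted p = 0.113), and Kcna6 was 0.62 without nonescalating library 1596. In 26 sodium and calcium channel genes the median was -0.06 and 0 members had an unadjusted p under 0.05 in either direction. Dopamine receptor and cyclic AMP signalling genes had a median of -0.01 over 41 members. The exception at an unadjusted p under 0.05 was the phosphodiesterase gene Pde2a, at 479.9 ± 62.5 CPM in saline (SD, n = 5) and 585 ± 80.5 CPM in nonescalating libraries (SD, n = 10) (0.28 ± 0.11). MAP kinase genes had a median of -0.02 over 39 members and no such exception.

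Of 37 neuropeptide and peptide receptor genes, 16 were positive (median -0.10), 0 were higher and 5 lower at an unadjusted p under 0.05, beside 52.5%, 2.55% and 1.97% of all genes. The median ran from -0.19 to -0.03 with a library left out. Oprk1, the kappa opioid receptor gene and so the receptor of dynorphin, had 114, 74.7, 92.1, 69.4 and 80.7 CPM in saline and 38.5 at the lowest, 64.4 at the median and 83.9 at the highest in nonescalating libraries. The difference was -0.42 ± 0.18, and -0.30 without library 1590. Besides Npy1r the others were low: the neurotensin gene Nts stood at 24.1 ± 14 CPM in saline and 11.8 ± 6.41 CPM in nonescalating libraries (-1.03 ± 0.45), the vasoactive intestinal peptide receptor gene Vipr1 at 16.5 ± 13.2 CPM in saline and 6.82 ± 5.21 CPM in nonescalating libraries (-1.28 ± 0.58) and the neurexophilin gene Nxph1 at 18.6 ± 26.2 CPM in saline and 7.44 ± 4.69 CPM in nonescalating libraries (-1.32 ± 0.56). Vipr1 was -0.68 without library 1590, and Nxph1 was 0.12 without library 1591. Among 27 semaphorin, plexin and neuropilin genes the median was 0.04. Besides Sema3e, the lower members at an unadjusted p under 0.05 were Sema5b (59.7 ± 25.9 CPM in saline and 37.7 ± 16 CPM in nonescalating libraries; -0.66 ± 0.30), Sema4g (-1.16 ± 0.55) and the receptor gene Plxna4 (238 ± 36.8 CPM in saline and 197 ± 27.3 CPM in nonescalating libraries; -0.27 ± 0.12). Sema3c, another secreted cue, was higher at 7.34 ± 5.58 CPM in saline (SD, n = 5) and 20.1 ± 20.2 CPM in nonescalating libraries (SD, n = 10) (1.46 ± 0.61), with library 1596 at 73.4 CPM and a difference of 0.95 without it. Without library 1590 Sema5b was -0.36 and Sema4g -0.49.

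Regulators of chromatin had 36 of 55 members positive (median 0.12), with 3 higher and 1 lower at an unadjusted p under 0.05, beside 52.5%, 2.55% and 1.97% of all genes. Dnmt1, the maintenance DNA methyltransferase gene, had 43.2, 62.8, 55.6, 78.2 and 73.1 CPM in saline and 59.4 at the lowest, 84.4 at the median and 133 at the highest in nonescalating libraries (0.55 ± 0.18). Hdac5, a histone deacetylase gene, stood at 101 ± 39.5 CPM in saline and 162 ± 96 CPM in nonescalating libraries (0.69 ± 0.32), Hdac7 at 3.68 ± 3.10 CPM in saline and 12.5 ± 13 CPM in nonescalating libraries (1.77 ± 0.76), and Hdac1 was lower at 22 ± 9.79 CPM in saline and 11.3 ± 6.77 CPM in nonescalating libraries (-0.96 ± 0.42). Without library 1596 Hdac5 was 0.42 and the list median was 0.04. Of 31 chaperone genes 2 were higher and 2 lower at an unadjusted p under 0.05, beside 2.55% and 1.97% of all genes. Hsf1, the heat shock transcription factor gene, had 31.3, 47.8, 30.8, 37.5 and 34.8 CPM in saline and 36.6 at the lowest, 51 at the median and 64 at the highest in nonescalating libraries (0.49 ± 0.18). Bag3, a co-chaperone gene, was also higher (1.74 ± 0.65), and Cct2 (-0.35 ± 0.16) and Dnajb4 (-0.35 ± 0.16) were lower, with Cct2 at -0.21 without library 1591. Rhob, a small GTPase gene of the actin list, stood at 110.1 ± 24.2 CPM in saline (SD, n = 5) and 155 ± 25.5 CPM in nonescalating libraries (SD, n = 10) (0.49 ± 0.17), and the other 47 actin members had no unadjusted p under 0.05. In 47 synaptic vesicle genes the median was 0.01, with the active zone scaffold gene Bsn (0.30 ± 0.13) and the fusion protein gene Stx1a (0.64 ± 0.28) higher. Ribosomal protein genes (80 members, median -0.01) and nuclear oxidative phosphorylation genes (76 members, median -0.06) had medians near that of all genes.

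Markers of other cell types overlapped between the groups in their summed levels. Of all genes 52.5% were positive, and 2.55% were higher and 1.97% lower at an unadjusted p under 0.05. All 12 tested oligodendrocyte markers were positive (median 0.71). Their summed level ran from 118 to 261 CPM in saline and from 115 to 713 CPM in nonescalating libraries, so the groups overlapped, and 1 member had an unadjusted p under 0.05, the myelin enzyme gene Cnp (15.8 ± 5.15 CPM in saline (SD, n = 5) and 28.3 ± 16.6 CPM in nonescalating libraries (SD, n = 10); 0.85 ± 0.36). Vascular markers were positive in 14 of 15 (median 0.70), with sums of 69.0 to 467 CPM in saline and 88.6 to 1341 CPM in nonescalating libraries. Library 1604 was the highest, and without it the vascular median was 0.30. Cdh5, the cadherin gene of endothelial cells, had the smallest p of that list, at 9.94 ± 6.63 CPM in saline (SD, n = 5) and 23.6 ± 17.1 CPM in nonescalating libraries (SD, n = 10) (1.25 ± 0.47). Oligodendrocyte precursor markers were sparse, with 4 of 6 positive (median 0.97, and 0.26 without library 1604) and sums of 6.37 to 19.9 CPM in saline and 7.70 to 57.6 CPM in nonescalating libraries, and Cspg4, the NG2 proteoglycan gene, was the member at an unadjusted p under 0.05 (1.70 ± 0.55). Choroid plexus and ependymal, interneuron and cortical projection neuron markers had 0 such members. The astrocyte list had 6 of 16 positive (median -0.15), and the microglia list 2 of 8 (median -0.40) at sums of 0 to 32.0 CPM. Gfap, an astrocyte filament gene, was high in a single library, saline 1591, at 30.6 CPM, and was at or under 4.14 CPM in the nonescalating libraries (-2.68 ± 1.10, and 0.06 without library 1591). These are pull-down samples without input. The number of cells of a type, RNA per cell and RNA carried over in the purification cannot be told apart in them. The part of these markers in the differences of other genes was not tested.

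Interferon and antigen presentation genes had 21 of 31 members positive (median 0.80), with 4 higher and 2 lower at an unadjusted p under 0.05, beside 52.5%, 2.55% and 1.97% of all genes. The higher ones were Ifit1 (0.854 ± 0.756 CPM in saline (SD, n = 5) and 4.82 ± 6.0 CPM in nonescalating libraries (SD, n = 10); 2.49 ± 1.07), Tapbp, a peptide loading gene (1.37 ± 0.59), and the interferon-induced GTPase genes Igtp (2.64 ± 1.15) and Gbp7 (1.62 ± 0.77). The lower ones were the transcription factor gene Irf7 (-2.38 ± 1.06) and the immunoproteasome gene Psmb9 (-2.80 ± 1.33). Single libraries weighed on these: Irf7 was -0.47 without library 1591, Psmb9 0.54 without 1590 and Igtp 5.02 without 1593. Levels were low, with sums of 79.3 to 158 CPM in saline and 82.7 to 252 CPM in nonescalating libraries, and the median was 0.39 without library 1604, with a range of 0.34 to 1.11 over the libraries left out.

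**Figure D5:**
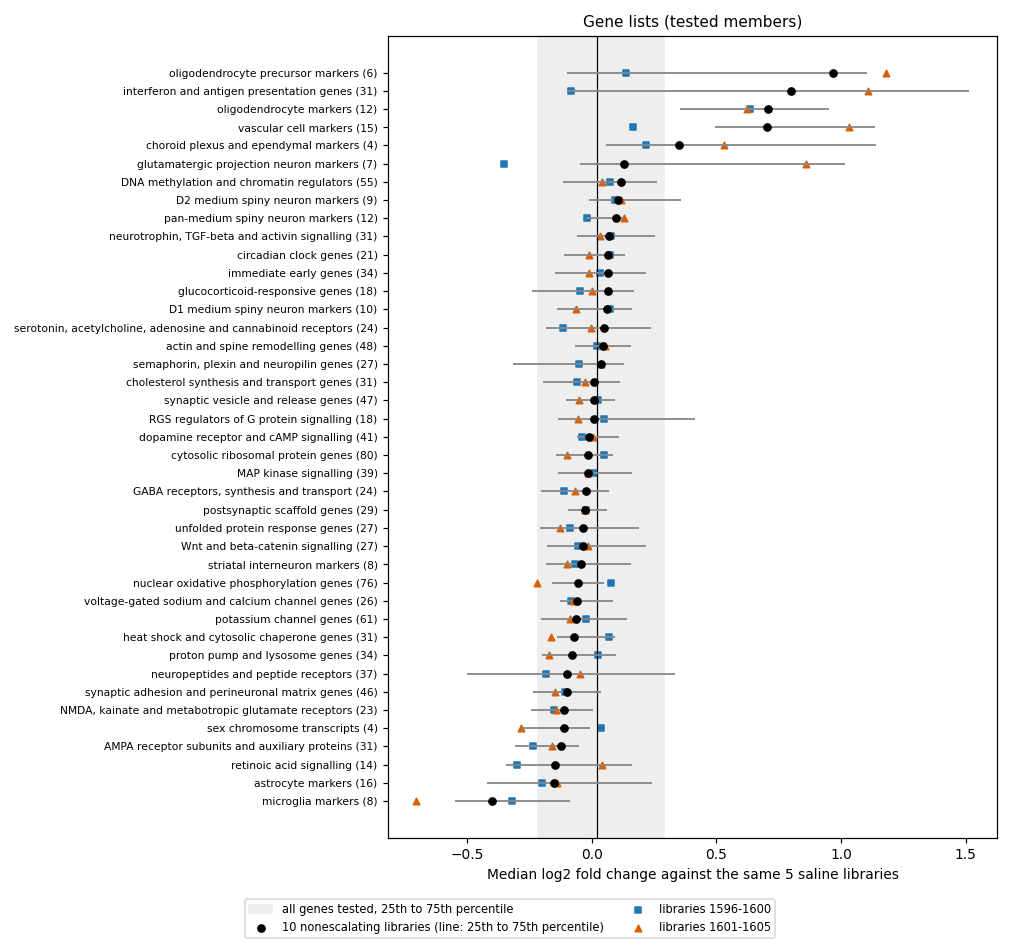
Median log2 fold change of each gene list (black points, with the 25th to 75th percentile of its members as a line; the number of tested members in brackets), and the medians of libraries 1596 to 1600 and 1601 to 1605 against the same 5 saline libraries. Most neuronal lists lie near the median of all genes, 0.02 (vertical line), and the interferon and vascular medians lie further right in the second run, at 1.11 and 1.03, than in the first, at -0.08 and 0.17.

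The runs of nonescalating libraries were set against each other directly. No gene was called (edgeR, smallest adjusted p 0.585), 1064 genes had an unadjusted p under 0.05, or 7.5% of those tested, and DESeq2 called 5. Penk, which had an unadjusted p under 0.05 and did not pass after adjustment, was 465 to 653 CPM in the first run and 318 to 536 CPM in the second (unadjusted p = 0.00475 in edgeR, adjusted p = 0.585). Tac1 was 0.05 against saline in the first run and -0.43 in the second. The leading genes were chosen over both runs together, which share their saline controls, so their values stand side by side with no test. Sidt2 was 0.84 and 1.03, Limch1 0.50 and 0.65, Rmnd5b 0.65 and 0.95, Mal2 -0.65 and -0.67, and Sema3e -1.09 and -1.14. Against saline alone the first run gave 0 calls with 668 genes at an unadjusted p under 0.05, and the second 0 calls with 858. Whether the runs are batches is not stated in the labels, and depth cannot be told apart from them.

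The same contrast 24 hours after self-administration rests on other libraries, 9 nonescalating and 6 saline. Over all 39 deep libraries edgeR called no gene whose nonescalating-saline difference had moved between the times (0 of 15579), with 1526 at an unadjusted p under 0.05, or 9.8%. Without saline libraries 1573 and 1574 and nonescalating library 1582, which stood apart at 24 hours, that number was 999. DESeq2 called 109. Kif13b was -1.94 ± 0.61 at 24 hours and higher at 1 month, a change of 3.93 (edgeR adjusted p = 0.168), and -1.51 ± 0.63 at 24 hours without those 3 libraries. Sidt2 was -1.09 ± 0.35 at 24 hours, and -0.23 ± 0.28 without them. Grip1 was 1.30 ± 0.60 at 24 hours, and 0.25 ± 0.48 without them. Drd2 was -1.35 ± 0.32 at 24 hours against -0.01 at 1 month, and -0.92 ± 0.33 without them. Limch1 was 0.08 ± 0.20 at 24 hours, Rmnd5b 0.03 ± 0.49 and Npy1r 0.05 ± 0.65. The standard errors of Rmnd5b and Npy1r are too wide to place them near 0. Without those 3 libraries Limch1 was 0.08 ± 0.21, Rmnd5b -0.32 ± 0.24 and Npy1r 0.14 ± 0.61.

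Values of the escalating libraries stand beside these only as numbers, since both cocaine groups were set against the same 5 saline libraries. Sidt2 had 41.4 ± 8.11 CPM there (SD, n = 4), Atp6v0a2 74.5 ± 3.15 CPM and Rmnd5b 37.5 ± 6.34 CPM. Mal2 had 48.1 ± 5.37 CPM, Grip1 18.6 ± 6.39 CPM and Fat3 369 ± 52.7 CPM.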

How the data were processed

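Each library has 1 deposited file of raw counts, whole numbers of reads for each gene symbol. Per the submitters' processing notes, the authors aligned reads with STAR 2.0.0e to mm10 and counted them with HTSeq. For HTSeq the version, the annotation and any use of strand were not given in the sources used here, so reads of overlapping or antisense genes, or of near-identical copies, may not be separable. Mitochondrially encoded genes were not found under the listed names and were not analysed. HTSeq's summary lines and the row naming no gene (at most 2.95e-06% of counts) stayed out of totals. Depth was 4.97 to 33.9 M counts per library. Counts were compared within the saline and within the nonescalating group (55 pairs, chi-square per gene 12.1 to 191), and none repeats another of its group. Libraries of different groups, and the escalating libraries, were not compared in this way.

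The model was edgeR 4.0.16 under R 4.3.3 over the 19 deep 1-month libraries: filterByExpr (minimum count 10), TMM, robust quasi-likelihood F test, two-sided, Benjamini-Hochberg adjustment over all genes tested, threshold 0.05. Values given as ± after a log2 fold change are standard errors (the log2 fold change over the root of its F value). It was tested on simulated data. Alternatives included limma 3.58.1 and DESeq2 1.42.0. Library measures were compared by exact permutation. Coordinates came from GENCODE vM21 (GRCm38, the assembly of mm10) by symbol, with 80 of 84 named genes matching 1 model.

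Named genes are 14 fixed ones; the 15 higher and 15 lower genes of smallest p at 1 CPM or more; up to 2 members per list with unadjusted p under 0.05; and the 5 widest gaps between groups in each direction (0.5 CPM added). Of the 84, 5 are not reported here. Other members named beside a count were picked after their values were seen. All members, lists and tests were chosen with earlier results of these data known. Of 43 lists, 41 had at least 3 tested members. Replicate numbers were not taken to pair libraries, since same-numbered libraries did not deviate together.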

Additional observations from a re-analysis of the deposited data

Results flagged for a closer look

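In 170 groups of values (79 genes and 6 library measures in each of the 2 groups), 27 had a single library far from the others by Dixon's test. Its nominal rate of about 1 in 20 assumes normally distributed values. CPM need not be so distributed, and most of these genes were chosen by their values in the same libraries. The 27 can therefore not be read against that rate. Saline library 1590 was far above the other saline libraries for Npy1r (120.0 CPM), Fat3 (592 CPM) and Nlgn1 (310 CPM). Saline library 1591 was so for Bdnf (5.32 CPM), Gfap (30.6 CPM) and Fbxl7 (0.506 CPM), library 1592 for Il2rg (0.334 CPM) and the noncoding transcript AK012046 (22.7 CPM), and library 1593 for Cnp (24.6 CPM). Library 1594 was far deeper than the other saline libraries, at 33.9 M counts.

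Nonescalating library 1596 was far above its group for Gria2 (1360.0 CPM), Kif13b (31.4 CPM), Fbxl7 (20.6 CPM), Kcna6 (167 CPM), Sema3c (73.4 CPM) and Ifit1 (21.0 CPM), and far below it for Neto2 (42.8 CPM) and Phtf1 (18.4 CPM). Library 1604 stood apart for Atp6v0a2 (111 CPM) and Ajuba (13.4 CPM), and library 1605 for Sidt2 (66.8 CPM), Bdnf (2.94 CPM) and Bsn (766 CPM). Library 1597 did for AK052938 (25.9 CPM), and library 1598 for AK012046 (1.66 CPM), Myh4 (1.05 CPM) and ambiguous reads (4.93%).

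In 3 genes every nonescalating library lay above the saline mean at 1 month and every one below it at 24 hours: Sidt2 (1-month log2 fold change 0.932), Znfx1 (0.505) and Kif13b (2.0). These opposite directions were not tested in themselves by that count. Without libraries 1573, 1574 and 1582 the 24-hour log2 fold change of Znfx1 went from -0.45 to -0.16. The edgeR test of the change gave adjusted p = 0.214 for Sidt2, 0.291 for Znfx1 and 0.168 for Kif13b.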

How the results depend on the processing

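The number of genes called was 0 under every alternative but DESeq2, which called 8, and it was 0 to 0 when each of the 15 libraries was left out. Genes at an unadjusted p under 0.05 numbered 432 with all 39 deep libraries, 653 with library 1595 kept in, 2105 without a low-count filter (20987 genes tested) and 473 to 887 with 1 library left out. Without libraries 1596 and 1604, an alternative added after seeing the data, there were 848. With the replicate block 0 genes were called and 494 had an unadjusted p under 0.05. The numbers do not pair the libraries: same-numbered libraries deviated from their group means with correlations of -0.0957 to 0.109, and 2 of 9 correlated best with their own number. DESeq2 called 109 genes in the change from 24 hours and 5 between the runs, and edgeR 0 to 0 in both with a library left out. The cause of the difference between tools was not tested.

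Of 2808 log2 fold changes of named genes under alternatives, 2767 kept their sign and 74 of 84 genes never changed it. Of the 84, 71 had an unadjusted p under 0.05 in edgeR, and most were chosen by their values in these libraries. The alternatives reuse the same libraries, so kept signs were largely built in and are no separate support. Of the 41 values of the other sign, 1 was for a gene at such a p. Drd2 was 0.42 with limma voom, 0.52 with limma voom and quality weights, 0.027 with library totals, 0.0030 at equal depth, 0.076 with reads outside features as covariate, 0.033 with the replicate block, 0.14 in libraries 1596 to 1600, 0.051 without 1596 and 1604, and -0.23 to 0.36 with a library left out. Pdyn was -0.035 in libraries 1601 to 1605 and -0.0025 to 0.12 with a library left out. Tac1 was 0.016 with quality weights and 0.053 in libraries 1596 to 1600. Fosb was 0.036 with the replicate block and -0.33 to 0.12 with a library left out. Arc was -0.014 with limma voom, -0.073 with quality weights, -0.43 in libraries 1601 to 1605 and -0.17 to 0.15 with a library left out. Egr1 was 0.035 in libraries 1596 to 1600 and -0.24 to 0.078 with a library left out. Nr4a1 was -0.048 with limma voom, -0.060 with quality weights, -0.016 in libraries 1601 to 1605, -0.073 without 1596 and 1604, and -0.045 to 0.25 with a library left out. Bdnf was 0.53 with limma voom and 1.37 with quality weights, Gria2 was 0.041 in libraries 1596 to 1600, and Gfap ran from -3.24 to 0.061 with a library left out. Of 1394 list medians, 1388 stayed within 1 SD of the reported value. This SD was that of the list's mean log2 CPM over the 10 nonescalating libraries. It is not an error of the median log2 fold change, so staying within it does not mean that a median was stable. With a library left out the microglia median ran from -0.71 to 0.19, the vascular one from 0.30 to 1.05 and the ribosomal protein one from -0.083 to 0.088. Intervals were widest for genes under 10 CPM.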

Other observations

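Several low transcripts were counted in nonescalating libraries and in none of the 5 saline libraries. The lactoperoxidase gene Lpo was at 0 in all saline libraries and reached 7.16 CPM in nonescalating library 1601, and 3 of the 10 nonescalating libraries were at 0. Ajuba, a LIM domain gene, and the noncoding transcripts Gm12504 and AK052938 were likewise at 0 in saline and reached 13.4, 9.85 and 25.9 CPM. They were counted in 7, 9 and 5 of the 10 nonescalating libraries. No fold is given for these genes.

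The labels give no sex. Over the 15 libraries the Y-linked transcript Ddx3y ran from 18.9 to 49.2 CPM and Kdm5d from 8.13 to 54.2 CPM, and Xist, made from the inactive X chromosome, from 0 to 3.10 CPM.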
